A study of Mus musculus with 6 samples.

Results

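The genes described here were 8 chemokine ligands: Xcl1, Ccl1, Ccl3, Ccl4, Ccl5, Ccl22, Cxcl10 and Cxcl16. They were picked by gene symbol, and 6 of the 8 were among the 13564 genes of the deposited normalized table. Ccl1 and Cxcl10 were not in that table and were read from the count files, which listed 55487 genes. RNA was sequenced from the progeny of naive CD4 T cells of Foxo1TKO and Foxo1Ctrl mice, with 3 libraries of each genotype, to compare the transcriptomes of activated CD4 T cells with and without the transcription factor Foxo1. Foxo1TKO mice carried floxed Foxo1 alleles and a CD4-Cre transgene, which deletes Foxo1 in all T cells and not in CD4 T cells alone. Foxo1Ctrl mice, their controls, carried the floxed alleles without Cre, so the groups differed in Cre as well as in Foxo1. The mice were young adults on a C57BL/6 background with a Foxp3-GFP reporter, and the sorted cells were CD44-/low and Foxp3-. In both groups 50000 lymph node T cells (the number in the sample labels, where the study's methods give a higher one) and 250000 CD3ε KO splenocytes, a feeder population without T cells, spent 4 days together with anti-CD3 in solution at 0.1 µg/ml. The sources state neither that the T cells were purified again before lysis nor that the libraries of a genotype came from separate mice or cultures. The p-values therefore measure the spread between these libraries, which may be technical, and an exact permutation of 3 against 3 libraries could not have given a two-sided p below 0.1.

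Chemokines are small secreted proteins that guide leukocytes along concentration gradients by binding receptors coupled to G proteins. They are named after the spacing of their first cysteines, which gives the C family (Xcl1), the CC family (the Ccl genes) and the CXC family (the Cxcl genes). Activated T cells make several of them, Xcl1, Ccl3, Ccl4 and Ccl5 above all, and through these ligands recruit dendritic cells, macrophages and other T cells. Foxo1 is best known in T cells for maintaining naive cells and for the expression of homing receptors such as Ccr7.

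Library totals lay between 14783890 and 19675447 counts, and the targeted gene followed the labels. Foxo1 had 82.2 ± 34.3 normalized counts (mean ± SD, n = 3) in Foxo1TKO and 1804 ± 418 in Foxo1Ctrl, a log2 fold change of -4.45 ± 0.36 (SE). Normalized counts are counts brought to a common library size with edgeR's TMM factors. The 12 T cell markers listed were all well above the count filter, and their sum lay between 199300 and 212300 in Foxo1TKO and between 223400 and 255000 in Foxo1Ctrl. Of these 12, 1 was called lower in Foxo1TKO, the costimulatory receptor Cd28, near the 11.8% of all genes tested. B cell and plasma cell transcripts were present in all libraries and were lower in Foxo1TKO, as given below.

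Xcl1 rose in Foxo1TKO cells from near the detection limit to the most abundant chemokine ligand transcript measured. Of the 6 ligands tested, Xcl1 was higher, Ccl5 was lower and 4 did not pass the test, where calling a gene required a fold change over 1.5 and an adjusted p below 0.05. Over all 13691 genes tested, 11.1% were called higher and 11.8% lower, so 1 gene in each direction out of 6 was near the share of all genes. The libraries of the 2 genotypes did not overlap for 4 of the 6 ligands, against 42.7% of all genes. The median log2 fold change of the 6 was 0.36, and that of all genes tested was 0.01. The 6 log2 fold changes ran from -0.82 for Ccl22 to 7.60 for Xcl1.

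**Figure D1:**
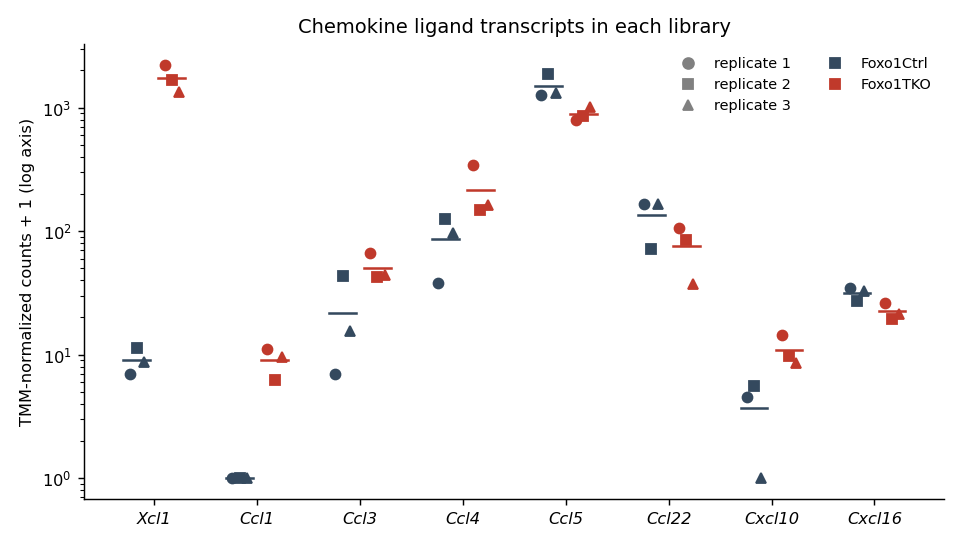
Each point is 1 library (circle, square and triangle for replicates 1, 2 and 3) and each line a mean. The vertical axis gives TMM-normalized counts plus 1 on a log axis, for Foxo1Ctrl (dark) and Foxo1TKO (red). The Xcl1 points of Foxo1TKO lie between 1339 and 2224.5 and those of Foxo1Ctrl between 5.96 and 10.3, whereas the points of Ccl3 and Ccl22 overlap between genotypes.

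Xcl1, also called lymphotactin, is the C-family ligand of Xcr1, a receptor carried by cross-presenting dendritic cells. Its normalized counts were 2224.5, 1664 and 1339 in the Foxo1TKO libraries. In Foxo1Ctrl they were 5.96, 10.3 and 7.75. Every Foxo1TKO library lay far above every Foxo1Ctrl library. Before normalization the Foxo1Ctrl libraries held 5, 9 and 8 counts, so Xcl1 passed the count filter through Foxo1TKO alone. The size of its fold change rests on these few counts and is known only roughly. On the log2 scale the fold change was 7.60 ± 0.32 (SE), with a 95% interval of 6.86 to 8.33, or 194-fold, at a Benjamini-Hochberg adjusted p of 3.42e-05 (quasi-likelihood test of edgeR). By log2 fold change Xcl1 ranked 8 from the top among the 13691 genes tested. Xcl1 (ENSMUSG00000026573) lies on the minus strand of GRCm38 at chr1:164931644-164935527 and has 3 exons in GENCODE M21.

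Gm20743, a gene on the opposite strand, overlaps an Xcl1 exon, and the sources do not state whether reads were counted by strand, so reads from the overlap cannot be told apart. Gm20743 had 56.3 ± 7.12 normalized counts in Foxo1TKO and 5.74 ± 1.87 in Foxo1Ctrl, far fewer than Xcl1 in Foxo1TKO. It was called higher, with a log2 fold change of 3.08 ± 0.38 and an adjusted p of 0.00116 (edgeR).

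NK cells also transcribe Xcl1, and the splenocytes could hold them. The summed level of the 10 NK cell markers listed was 142 to 197 normalized counts in Foxo1TKO and 113 to 133 in Foxo1Ctrl. Of these markers 4 were tested and 1, Klra3, was higher, beside 11.1% of all genes. Klra3 had 86.3 ± 14.96 normalized counts in Foxo1TKO and 21.5 ± 6.53 in Foxo1Ctrl (log2 fold change 1.96 ± 0.34). Klrb1c (-0.68 ± 0.47) and Klrc2 (-0.46 ± 0.46) had negative values, Klre1 (0.38 ± 0.42) a positive one, and these were not called. The median log2 fold change of the 4 tested was -0.04, while the summed levels did not overlap between genotypes. Ncr1, the receptor that defines NK cells in the mouse, had 2 to 13 counts in Foxo1TKO and 2 to 7 in Foxo1Ctrl, and Klra8 was at 0 in all libraries. The part of these cells in the Xcl1 level was not tested. In bulk RNA, fewer cells of a type and less RNA per cell cannot be told apart.

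Ccl1, the ligand of Ccr8, had 12, 6 and 8 counts in the Foxo1TKO libraries and 0 counts in each Foxo1Ctrl library. It did not reach 10 counts in 3 libraries and was therefore not part of the main test. Set against a floor of 3 counts per Foxo1Ctrl library, it was at least 2.42-fold higher in Foxo1TKO. Without the filter on low counts it was called higher, at an adjusted p of 0.015 (edgeR). Ccl1 (ENSMUSG00000020702) spans chr11:82176657-82305690 on the minus strand in GENCODE M21, a gene model of 129034 bases, and the start that RefSeq gives lies inside this span.

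Cxcl10, an interferon-induced ligand of Cxcr3 that attracts effector T cells, was also below the filter. It had 16, 10 and 7 counts in Foxo1TKO and 3, 4 and 0 counts in Foxo1Ctrl. The Foxo1TKO libraries lay above the Foxo1Ctrl libraries, but a test without the filter gave a log2 fold change of 1.60 at an adjusted p of 0.229 (edgeR). Art3 overlaps Cxcl10 on the opposite strand, so that some of these reads could belong to it.

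Sequence upstream of the start was at hand from RefSeq (GRCm38.p6) for 5 of the 8 ligands: Xcl1, Ccl1, Ccl3, Ccl22 and Cxcl10. The 250 bases before the start are shown for the 3 whose normalized counts in Foxo1TKO all exceeded those in Foxo1Ctrl, so that the window of Xcl1 can be set beside those of the 2 faint ligands. Capitals mark matches on either strand to 4 motifs: GTAAACA for Foxo factors, GGG and CC with any 5 bases between them for NF-kB, TGANTCA for AP-1 and GGAAAA for NFAT.
Xcl1: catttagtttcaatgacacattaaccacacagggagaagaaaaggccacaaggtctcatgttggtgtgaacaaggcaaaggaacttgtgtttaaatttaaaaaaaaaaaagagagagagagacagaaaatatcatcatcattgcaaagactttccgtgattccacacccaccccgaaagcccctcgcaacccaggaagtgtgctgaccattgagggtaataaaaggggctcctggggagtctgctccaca
Ccl1: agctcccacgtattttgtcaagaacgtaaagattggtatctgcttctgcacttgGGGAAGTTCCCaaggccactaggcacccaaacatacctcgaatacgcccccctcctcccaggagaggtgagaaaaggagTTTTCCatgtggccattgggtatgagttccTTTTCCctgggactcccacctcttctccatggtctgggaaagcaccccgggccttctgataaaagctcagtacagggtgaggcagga
Cxcl10: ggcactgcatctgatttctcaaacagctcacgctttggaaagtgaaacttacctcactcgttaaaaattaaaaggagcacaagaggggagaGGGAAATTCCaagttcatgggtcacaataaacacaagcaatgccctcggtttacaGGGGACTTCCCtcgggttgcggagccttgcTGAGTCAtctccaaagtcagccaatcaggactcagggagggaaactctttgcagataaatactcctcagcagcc
These windows lie on the minus strand at chr1:164935523-164935772 for Xcl1, chr11:82179813-82180062 for Ccl1 and chr5:92348890-92349139 for Cxcl10, and are printed 5′ to 3′ along the gene.

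The Xcl1 window had no match to any of the 4 motifs. The Ccl1 window had 2 matches to the NF-kB letters, which overlap on opposite strands, and 2 to the NFAT letters. The Cxcl10 window had NF-kB matches at 3 positions, 2 of them overlapping, and 1 AP-1 match, which reads alike on both strands. The Ccl22 window had 2 NF-kB matches and the Ccl3 window 1 NFAT match. For Ccl3 alone, the bases after the RefSeq start were not found in a GENCODE M21 transcript of the gene. No window of the 5 held GTAAACA. Of 32851 promoter windows of this length, 3.17% held the Foxo letters, 45.8% the NF-kB letters, 6.75% the AP-1 letters and 20.4% the NFAT letters. A match is a description of these letters and not a site, and the lack of a match says only that the letters are not in the window.

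Ccl3 and Ccl4, the macrophage inflammatory proteins 1α and 1β, are neighbours 13.2 kb apart on chromosome 11. Ccl4, which attracts T cells and macrophages, had 339.8, 147 and 162 normalized counts in Foxo1TKO. Its Foxo1Ctrl libraries had 37.0, 124 and 95.9. All Foxo1TKO libraries lay above all Foxo1Ctrl libraries, but the gap between the lowest and the highest of these was small beside the spread within each genotype. The log2 fold change was 1.33 ± 0.49 (SE), with a 95% interval of 0.20 to 2.46, and Ccl4 was not called (adjusted p = 0.0874, edgeR). It was called by DESeq2 (log2 fold change 1.34, adjusted p = 0.0307) and by edgeR without the filter on low counts (1.34, adjusted p = 0.04).

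Ccl3, a ligand of Ccr1, was less abundant, with 65.1, 41.2 and 42.9 normalized counts in Foxo1TKO. Its Foxo1Ctrl libraries had 5.96, 42.3 and 14.5. Foxo1Ctrl replicate 2 lay within the Foxo1TKO range and the others lay below it. The log2 fold change was 1.21 ± 0.60, the 95% interval reached from -0.18 to 2.61, and the adjusted p was 0.187 (edgeR). Without Foxo1Ctrl replicate 2 it was 2.17 and Ccl3 was called (adjusted p = 0.0203). The ratio of Ccl4 to Ccl3 in TPM (RSEM's transcript share, a level that takes account of transcript length) was 5.08 ± 1.10 in Foxo1TKO and 6.35 ± 2.45 in Foxo1Ctrl, and these ranges overlapped.

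Ccl5, also called RANTES, binds Ccr1 and Ccr3 among others and is a typical product of effector and memory T cells. It had 798, 861 and 1018.5 normalized counts in Foxo1TKO. In Foxo1Ctrl it had 1255.5, 1877 and 1323. All Foxo1TKO libraries lay below all Foxo1Ctrl libraries. Ccl5 was lower in Foxo1TKO, with a log2 fold change of -0.73 ± 0.20, a 95% interval of -1.20 to -0.27 and an adjusted p of 0.0324 (edgeR). This call was fragile: leaving out any 1 of the 3 Foxo1TKO libraries (-0.68, -0.71 and -0.84 without replicates 1, 2 and 3) or Foxo1Ctrl replicate 2 (-0.52) or 3 (-0.81) ended it, and it held without Foxo1Ctrl replicate 1 (-0.85).

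Ccl22, the ligand of Ccr4, is made by dendritic cells, B cells and activated T cells. Its normalized counts were 105, 83.4 and 36.5 in Foxo1TKO and 163, 70.9 and 165 in Foxo1Ctrl. The groups overlapped, since Foxo1Ctrl replicate 2 was below 2 of the Foxo1TKO libraries. Its log2 fold change of -0.82 ± 0.46 had a 95% interval of -1.88 to 0.25 (adjusted p = 0.243, edgeR).

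Cxcl16 encodes a ligand of Cxcr6 that is made as a membrane protein and shed. It had 25.4, 18.4 and 20.4 normalized counts in Foxo1TKO and 33.4, 26.3 and 32.0 in Foxo1Ctrl. The Foxo1TKO libraries were all below the Foxo1Ctrl libraries by a narrow margin. Its log2 fold change was -0.49 ± 0.33, with a 95% interval of -1.25 to 0.27 (adjusted p = 0.322, edgeR). Zmynd15 overlaps Cxcl16 on the opposite strand.

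Ccl22 and Cxcl16 are also made by antigen-presenting cells, of which the splenocytes could hold several types. The summed B cell markers were 164 to 221 normalized counts in Foxo1TKO and 560.4 to 639.5 in Foxo1Ctrl. Of the 8 tested, of 10 listed, 4 were lower (Ms4a1, Cd79a, Cd79b and Cd22), beside 11.8% of all genes. The plasma cell list summed to 5848 to 6868 against 15500 to 23400. All 4 tested of 6 listed were lower (Jchain, Mzb1, Iglc2 and Ighm), beside the same 11.8%. The 9 dendritic cell markers overlapped, with sums of 162 to 219.7 and 158 to 275 and Cd209a at 0, and neither of the 2 tested was called. The 12 macrophage and monocyte markers summed to 69.3 to 100.9 in Foxo1TKO and 45.7 to 63.0 in Foxo1Ctrl, most of it Cd68, the only one tested, which was not called, with C1qa and C1qc at 0. The 8 neutrophil markers summed to 4.29 to 33.3 in Foxo1TKO and 0 to 3.58 in Foxo1Ctrl, with Retnlg at 0, and the CD8 T cell markers to 91.2 to 145 against 144 to 161. The part of these cells in the ligand levels was not tested.

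**Figure D2:**
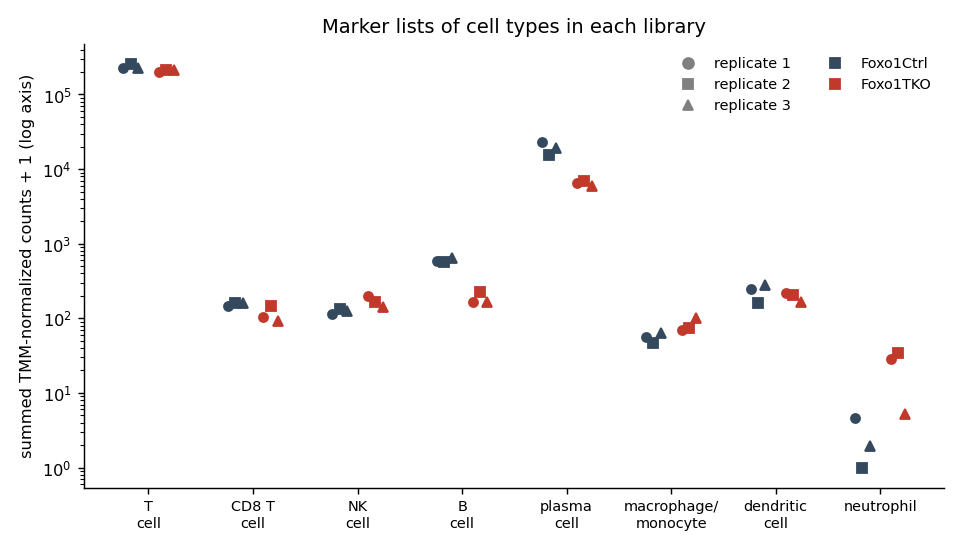
Each point is the summed TMM-normalized count plus 1 of a marker list in 1 library, on a log axis, for Foxo1Ctrl (dark) and Foxo1TKO (red), with circle, square and triangle for replicates 1, 2 and 3. T cell sums are at least 199300 in every library, and B cell and plasma cell sums are lower in all Foxo1TKO libraries.

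Levels of different ligands were compared as TPM. In Foxo1Ctrl the order ran from Ccl5, at 254.5 ± 27.7 TPM (SD, n = 3), to Ccl4 at 10.8 ± 4.97, Ccl22 at 4.29 ± 2.02, Ccl3 at 2.10 ± 1.69, Xcl1 at 1.41 ± 0.25 and Cxcl16 at 1.19 ± 0.41. From Ccl4 to Cxcl16 each neighbour in that order overlapped the next. Cxcl10 was lower, at 0.133 ± 0.141, and Ccl1 was at 0. In Foxo1TKO the order began with Xcl1 at 329 ± 113, followed by Ccl5 at 161 ± 9.91, Ccl4 at 29.9 ± 17.5 and Ccl3 at 5.60 ± 1.99, and no neighbours among these overlapped. Ccl22 (2.50 ± 1.32), Ccl1 (1.46 ± 0.55), Cxcl16 (0.697 ± 0.358) and Cxcl10 (0.517 ± 0.268) followed, each overlapping the next. The mean TPM of Xcl1 was above that of 18.5% of the tested genes in Foxo1Ctrl and 96.1% in Foxo1TKO, whereas Ccl5 stood above 95.1% and 92.0%.

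The summed TPM of the 8 ligands and 31 other chemokine ligand genes was 697, 509 and 462 in Foxo1TKO and 259, 322 and 287 in Foxo1Ctrl. Xcl1 made up 64.9%, 59.5% and 50.2% of it in Foxo1TKO and 0.436%, 0.50% and 0.52% in Foxo1Ctrl. Ccl5 made up 22.6%, 29.9% and 37.2% in Foxo1TKO and 89.4%, 88.5% and 86.2% in Foxo1Ctrl. The leading ligand transcript was thus Ccl5 in every Foxo1Ctrl library and Xcl1 in every Foxo1TKO library. Without Xcl1 the sum was 226.9 ± 19.4 in Foxo1TKO and 288 ± 31.4 in Foxo1Ctrl. TPM are shares of each library's transcripts, so these sums compare composition and not amounts per cell.

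**Figure D3:**
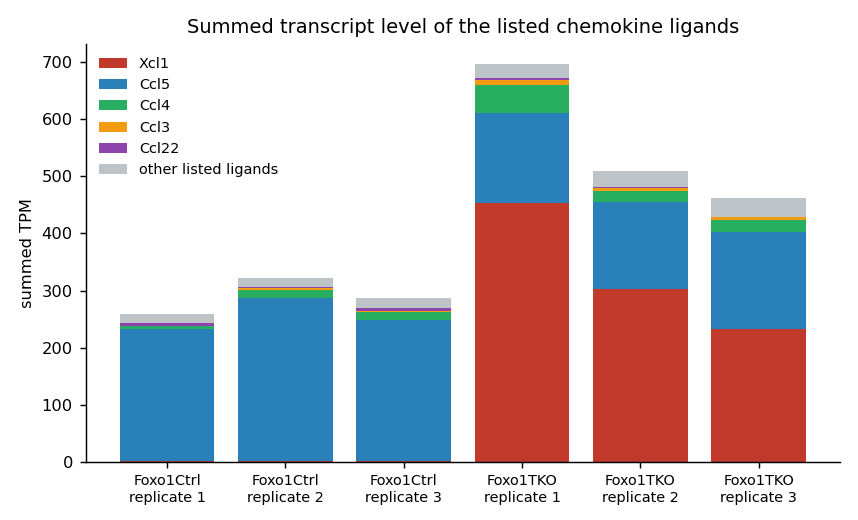
Each bar is 1 library and its height the summed TPM of the 39 listed chemokine ligands, coloured by ligand. Xcl1 fills between 50.2% and 64.9% of the Foxo1TKO bars and cannot be seen in the Foxo1Ctrl bars, where Ccl5 fills at least 86.2%.

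Of the 31 other ligands, 19 were at 0 in all libraries and 10 had a highest count of at most 8. The remaining 2 were tested and neither was called. Ccl25, the ligand of Ccr9, had a log2 fold change of -0.32 ± 0.24 (95% interval -0.88 to 0.23, adjusted p = 0.378, edgeR). Ccl27a, a skin-homing ligand, had 80.5 ± 23.9 normalized counts in Foxo1TKO and 40.4 ± 5.52 in Foxo1Ctrl, without overlap (log2 fold change 0.97 ± 0.32, 95% interval 0.24 to 1.71, adjusted p = 0.0598, edgeR).

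Receptors of the ligands moved in both directions. Of 7 described, 6 were tested, 1 was higher and 2 were lower in Foxo1TKO, beside 11.1% and 11.8% of all genes, and their median log2 fold change was -0.25. Ccr8, the receptor for Ccl1, was the receptor that rose, and had 8449, 10893 and 9030 normalized counts in Foxo1TKO and 247, 378.5 and 384 in Foxo1Ctrl. Its log2 fold change was 4.81 ± 0.24, with a 95% interval of 4.26 to 5.36 (adjusted p = 3.42e-05, edgeR). Ccl1 itself rested on 26 counts over the 3 Foxo1TKO libraries.

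Cxcr3, the receptor for Cxcl10 and a mark of T helper type 1 cells, fell from 3332 ± 463 to 369 ± 116 normalized counts (log2 fold change -3.17 ± 0.26, adjusted p = 0.000208, edgeR). It did not overlap between genotypes. Ccr1, a receptor of Ccl3 and Ccl5, was lower as well, at 16.8 ± 8.10 against 52.8 ± 21.7 (-1.57 ± 0.48, adjusted p = 0.0476, edgeR). This last call ended when any 1 of the 6 libraries was left out (-1.81 to -1.18, adjusted p 0.0642 to 0.123), and with limma or effective lengths as an offset (adjusted p = 0.0532 and 0.0514).

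The other receptors tested were not called. Xcr1, the receptor for Xcl1, had 67.6, 56.2 and 18.2 normalized counts in Foxo1TKO and 22.7, 30.9 and 50.4 in Foxo1Ctrl, which overlapped (log2 fold change 0.44 ± 0.51, 95% interval -0.75 to 1.63, adjusted p = 0.585, edgeR). Ccr4, the receptor for Ccl22, had a log2 fold change of -0.67 ± 0.58 (95% interval -2.02 to 0.68). Cxcr6, the receptor for Cxcl16, was abundant in both genotypes, at 6832 ± 1946 normalized counts in Foxo1TKO and 6057 ± 1482 in Foxo1Ctrl. Its log2 fold change was 0.17 ± 0.25, with a 95% interval of -0.40 to 0.75. Ccr3 was below the count filter.

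**Figure D4:**
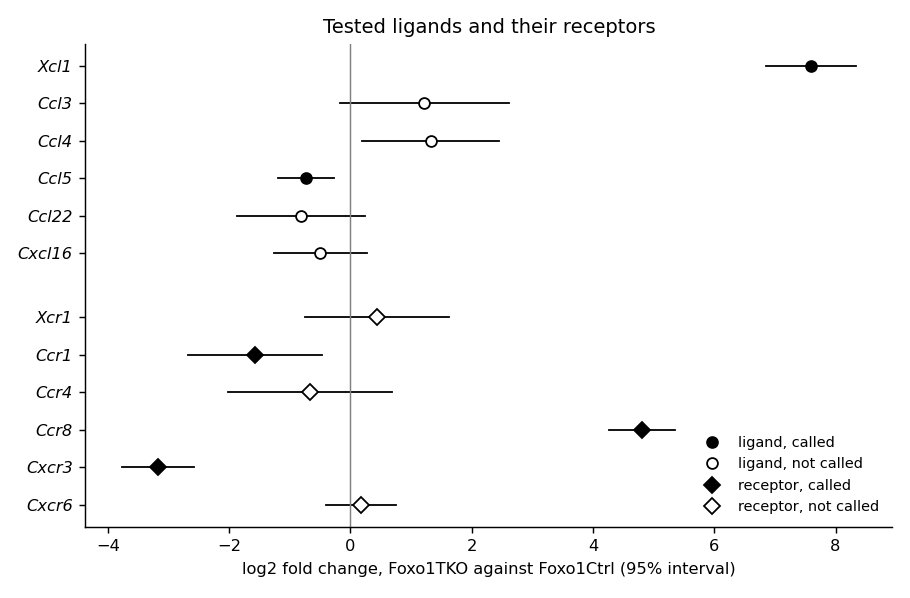
Log2 fold changes of Foxo1TKO against Foxo1Ctrl with 95% intervals, for the tested ligands (circles) and their receptors (diamonds), filled where the gene was called. Xcl1 at 7.60 and Ccr8 at 4.81 lie far to the right, while Cxcr3 and Ccr1 lie to the left of 0.

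Among 15 other chemokine receptors, 9 were tested, 4 were higher and 3 were lower, beside 11.1% and 11.8% of all genes, with a median log2 fold change of 1.31, which was the same with Cxcr1 at its bound. Ccrl2, an atypical receptor that does not signal, rose by 1.46 ± 0.21 on the log2 scale, and Ccr9, a gut-homing receptor, by 2.34 ± 0.47. Ccr6 (1.66 ± 0.40) and Cx3cr1 (2.86 ± 0.76) were called higher too. Ccr2, which guides cells to inflamed tissue, had a log2 fold change of -3.14 ± 0.33, and Ccr7, the lymph node homing receptor, of -1.25 ± 0.31. Cxcr1 had 42.5 ± 14.6 normalized counts in Foxo1Ctrl and 0 in every Foxo1TKO library, which is at least 15.2-fold lower against a floor of 3 counts per library. Cx3cr1 passed the count filter through Foxo1TKO alone and Cxcr1 through Foxo1Ctrl alone, so their place among the calls depended on this difference.

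Some of these calls ended when any of several libraries was left out. Ccr6 was not called without Foxo1TKO replicate 2 (1.499) or 3 (1.51) or Foxo1Ctrl replicate 3 (1.68), and the number of receptors called higher was then as low as 2. Ccr7 was not called without Foxo1TKO replicate 2 (-1.34) or 3 (-1.10) or Foxo1Ctrl replicate 1 (-1.08) or 3 (-1.09). Cx3cr1 had at most 22.8 normalized counts. Its log2 fold change with 1 library left out was 2.53 to 4.12, and of those 6 fits it was called only in that without Foxo1Ctrl replicate 3. The calls of Ccr2, Ccr9, Cxcr1 and Ccrl2 held without any 1 library.

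Of 4 genes that store, cut or shed chemokines, 2 were lower, beside 11.8% of all genes, and 1 of these calls was fragile. Dpp4, a surface protease that trims the start of several chemokines, fell from 5053 ± 541 to 1585 ± 228 normalized counts (log2 fold change -1.67 ± 0.17, adjusted p = 0.000509, edgeR). Srgn, the granule proteoglycan serglycin that holds chemokines in storage, had a log2 fold change of -0.72 ± 0.22 (adjusted p = 0.045, edgeR). The Srgn call was lost without Foxo1TKO replicate 1, 2 or 3 or Foxo1Ctrl replicate 1 or 2, with values of -0.43 to -0.85 and adjusted p of 0.0322 to 0.152, where the value of -0.43 was under the fold threshold. It was lost too with limma and with DESeq2's size factors (adjusted p = 0.0542 and 0.0536). Adam10 and Adam17, which shed Cxcl16 from the membrane, had log2 fold changes of -0.51 ± 0.13 and 0.20 ± 0.14, and neither passed both thresholds.

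Of 17 genes known to regulate chemokine transcription in T cells, 16 were tested, 4 were higher and 5 were lower, beside 11.1% and 11.8% of all genes, with a median log2 fold change of 0.12. Eomes, a T-box factor of cytotoxic and memory cells, rose from 266 ± 71.5 to 1280 ± 57.4 normalized counts (2.26 ± 0.22 on the log2 scale). Tnf (1.16 ± 0.27) and Rel, an NF-kB subunit (0.85 ± 0.18), were higher too. Klf13, known as an activator of Ccl5 transcription, had a log2 fold change of -1.39 ± 0.19. Runx3 (-1.21 ± 0.21), the calcium-responsive factor Nfatc3 (-1.01 ± 0.20), the cytokine Il2 (-2.28 ± 0.52) and Stat4 (-0.67 ± 0.13), which signals downstream of interleukin 12, were lower. Nfatc1 was called higher and lost its call without Foxo1TKO replicate 1 (0.50) or 2 (0.71) or Foxo1Ctrl replicate 1 (0.63) or 3 (0.64).

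Ifng, the cytokine that induces Cxcl10, had 160, 73.7 and 66.5 normalized counts in Foxo1TKO and 39.3, 59.5 and 55.2 in Foxo1Ctrl, without overlap, and was not called (log2 fold change 0.95 ± 0.40, 95% interval 0.03 to 1.87, adjusted p = 0.126, edgeR). Without Foxo1TKO replicate 2 the calls of Tnf (1.20), Il2 (-2.14) and Stat4 (-0.68) were lost and 3 regulators were called lower. Without Foxo1Ctrl replicate 3 that of Tnf (1.20) was lost. Eomes, Rel, Klf13, Runx3 and Nfatc3 were called without any 1 library.

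The pattern of Xcl1 over the 6 libraries was compared with those of 9234 genes averaging 100 or more normalized counts, by the root mean square difference of mean-centred log2 counts scaled to library size (CPM). The closest genes were Prss23, a secreted serine protease (0.351 log2 units), Atp2b2, a calcium pump of the plasma membrane (0.382), Itgax, the integrin CD11c (0.677), Nefm, a neurofilament subunit (0.696), and Cavin1, a caveola protein (0.746). All 5 were at most 3.88 normalized counts in any Foxo1Ctrl library, and in Foxo1TKO they ranged from 189 for Prss23 to 655 for Atp2b2. A large rise in Foxo1TKO was built into the choice of these genes and is not a further result. With values so near 0 in Foxo1Ctrl, the measure depends on the prior count of 1 that was added. By the same measure Xcl1 was at least 3.07 log2 units from each of the other 5 tested ligands, among which the nearest were Ccl5 with Cxcl16 (0.366), Ccl3 with Ccl4 (0.397) and Ccl22 with Cxcl16 (0.544). These distances describe 6 libraries that share their normalization.

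**Figure D5:**
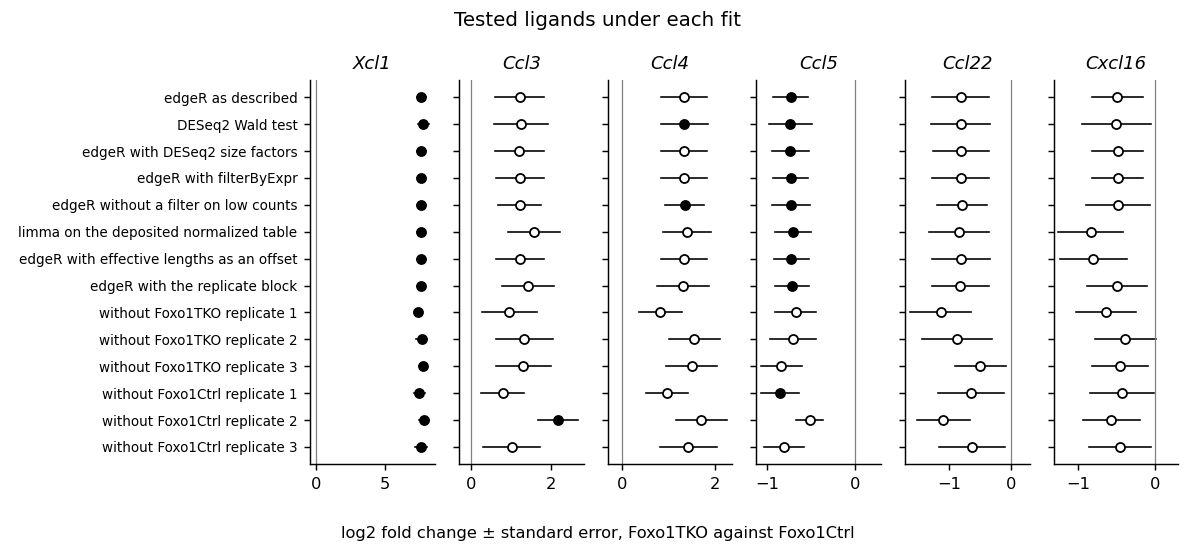
Log2 fold change ± SE of each tested ligand (panels, each with its own horizontal scale) under each fit (rows), filled where the gene was called. Xcl1 is called in every fit, at 7.36 to 7.80. Ccl5 keeps its direction and loses its call in 5 of the 6 fits that leave out 1 library.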

How the data were processed

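RNA-seq libraries of Foxo1TKO and Foxo1Ctrl cells (3 each) were grouped by their labels. Per the labels and methods, the authors aligned reads with STAR 2.7.6a to GRCm38 (Ensembl release 101), kept reads mapping to at most 10 loci, and quantified genes with RSEM 1.3.1. The deposited files held expected counts, effective lengths and TPM per gene from the authors, and a deposited table of normalized signal (the authors' DESeq2 1.26.0, R 3.6.3). Expected counts, which share ambiguous reads between genes, were rounded to whole numbers. Genes that reached 10 counts in 3 or more libraries (13691 genes, at least 99.9% of counts) were fitted with edgeR 4.0.16 (R 4.3.3; TMM, quasi-likelihood test, genotype as the only term), and p-values were adjusted over all of them by Benjamini-Hochberg. TPM served to compare levels between genes, and for the ligand sums, shares and the Ccl4 to Ccl3 ratio in each genotype. No test was run on TPM. Alternatives used DESeq2 1.42.0, limma 3.58.1 on log2(value + 1) of the deposited table, other filters and scalings, and fits without each library. The fit was tested on simulated data.

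Genes named were the 8 ligands, their receptors, called genes of the related lists (values for at most 8 per list), the 5 genes most like Xcl1, and Foxo1. Adam10, Adam17, Ifng, Ccl25, Ccl27a, Klrb1c, Klrc2, Klre1 and the genes near the ligands fall outside this rule and were chosen after their values were seen. The ligands and lists were chosen with earlier results of these data known. Positions are from GENCODE M21 and promoters from RefSeq, both GRCm38. Protein sequences were not used here, and 2 genes of the related lists are not reported here. Intervals are at 95%. For edgeR, SE and intervals were derived from the log2 fold change and the F statistic of the quasi-likelihood test, with a prior count of 1.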

Additional observations from a re-analysis of the deposited data

How the results depend on the processing

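Under 13 alternatives the log2 fold change of Xcl1 was 7.36 to 7.80, and it was called in each. No tested ligand changed direction under any alternative. The number of ligands called higher was 2 with DESeq2, which added Ccl4 (1.34), and 3 without the filter on low counts, which added Ccl4 (1.34) and Ccl1. Without 1 library the number called higher was 1 to 2 and the number called lower 0 to 1. The log2 fold change without 1 library ranged from 0.79 to 2.17 for Ccl3, 0.82 to 1.70 for Ccl4, -0.85 to -0.52 for Ccl5, -1.14 to -0.50 for Ccl22 and -0.64 to -0.39 for Cxcl16, which was -0.84 with limma on the deposited table and -0.81 with effective lengths as an offset, against -0.49, and was not called in either. Ccl3 was called without Foxo1Ctrl replicate 2 (2.17). The causes were not tested.

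Replicate numbers were shared between genotypes, but the correlations of same-numbered libraries' deviations from their genotype means were 0.432, 0.198 and -0.109. Those of differently numbered libraries ran from -0.455 (Foxo1TKO 1 with Foxo1Ctrl 2) to 0.301 (Foxo1TKO 3 with Foxo1Ctrl 2). The numbers were therefore not taken as pairs. With the replicate block 1657 genes were called higher and 1661 lower, against 1525 and 1619 without it, and Xcl1 was 7.56, Ccl3 1.42, Ccl4 1.305, Ccl5 -0.72, Ccl22 -0.82 and Cxcl16 -0.50, with no ligand's call changed. Over all genes, without Foxo1TKO replicate 2 the calls were 874 higher and 980 lower, and without Foxo1Ctrl replicate 1 942 and 1089. Ccl1 and Cxcl10 had at most 16 counts in a library, so their differences are known only roughly.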

Other observations

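Of 10 tested genes within 500 kb of Xcl1, including Gm20743, which overlaps it, 4 were called higher and 3 lower, beside 11.1% and 11.8% of all genes. Gm32569, at 32.1 kb, had a mean of 35.3 normalized counts in Foxo1TKO and 5.48 in Foxo1Ctrl (log2 fold change 2.49, adjusted p = 0.00552, edgeR). Dpt, a matrix protein gene at 107 kb, had 21.5 and 3.67 (2.28, adjusted p = 0.00911, edgeR). Sft2d2, a vesicle transport gene at 239 kb, had 3982 and 1883 (1.08, adjusted p = 0.00351, edgeR). Gm37403, at 55.3 kb, went the other way, with 0.877 in Foxo1TKO and 25.9 in Foxo1Ctrl. Dcaf6 (-1.13) and Atp1b1 (-0.82) were lower too. Gm20743, Gm32569 and Dpt were near the floor in Foxo1Ctrl (means of 5.74, 5.48 and 3.67), and Gm37403 was so in Foxo1TKO. Such genes pass the count filter mainly through the genotype where they are high, so these numbers of calls are no test of the region.

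Around Ccl5, 18 genes were tested, of which 0 were higher and 2 lower, beside 11.1% and 11.8% of all genes. The 2 were Slfn1 and Slfn2, Schlafen genes of T cells at 403 and 455 kb, with log2 fold changes of -3.87 and -2.12. Slfn3 (-0.71) and Slfn10-ps (0.21) in the same window were not called. Ccl3 and Ccl4, at 117 and 132 kb from Ccl5, had positive values and were not called. Of 16 tested neighbours of Ccl22, 5 were higher, beside 11.1% of all genes, and 2 lower, near the 11.8% of all genes. Of 31 around Cxcl16, 3 were higher and 3 lower, near the 11.1% and 11.8% of all genes. Among these, Eno3, a glycolytic enolase at 197 kb, had the highest value (4.67, adjusted p = 4.8e-05, edgeR). The neighbours named here were chosen after their values were seen.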
